A study of Mus musculus with 8 samples.

Results

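Genes of the cell cycle, 40 in all, were followed in whole retinas of rd10 mice, in which rod photoreceptors degenerate, and of wild-type (WT) mice. The 40 genes were taken by symbol from the deposited table, 16 that act in DNA replication (S phase) and 24 that act in mitosis, out of 57010 gene identifiers. All 40 passed the filter on low counts and were among the 20457 genes tested. The table holds poly(A) RNA sequencing counts of 8 libraries, each from 1 retina, in 4 groups of 2: WT at postnatal day 15 (P15) and rd10 at P15, P18 and P21. The rd10 mice were homozygous for a missense mutation of Pde6b, a subunit of the rod phosphodiesterase. Rods of rd10 mice die from about the third week of life, and the controls were described as wild-type littermates. No WT retina at P18 or P21 was analysed here, so that in the P18 and P21 comparisons with WT P15 the mutation and 3 or 6 days of age cannot be told apart.

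Cells that divide copy their DNA in S phase and separate the copies in mitosis. The Mcm2 to Mcm7 proteins form the helicase that opens DNA, with Cdc6 and Cdc45 loading and activating it, and Pcna is the clamp that holds the polymerases. Rrm1 and Rrm2 form ribonucleotide reductase, which with Tyms and Tk1 supplies the building blocks, and E2f1 with the E-type cyclins Ccne1 and Ccne2 drives the step into S phase. Mitosis is started by the kinase Cdk1 with the cyclins Ccna2, Ccnb1 and Ccnb2, and its genes are switched on late in the cycle through promoter elements named CCAAT and CHR. The retina at this age is almost wholly made of neurons that no longer divide, whereas microglia can divide when neurons die. In a whole-retina library, fewer cells of a type and less RNA per cell cannot be told apart.

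The promoters of 4 members on which the results turn are shown to let the 2 classes be compared by eye, with Top2a, Mki67 and Cdk1 for mitosis and Mcm6 for S phase. Each sequence runs from 250 bases before to 50 bases after the RefSeq start on build GRCm38.p6, 5′ to 3′ on the gene's strand, which is the minus strand in all 4, and capitals mark matches to CCAAT, to the CHR element (TTTGAA or TTTAAA) or to an E2F site (TTTCCCGC, TTTCGCGC, TTTGCCGC or TTTGGCGC) on either strand. The Top2a window lies at chr11:99024140-99024439, the Mki67 window at chr7:135716330-135716629, the Cdk1 window at chr10:69352863-69353162 and the Mcm6 window at chr1:128359656-128359955.
Top2a: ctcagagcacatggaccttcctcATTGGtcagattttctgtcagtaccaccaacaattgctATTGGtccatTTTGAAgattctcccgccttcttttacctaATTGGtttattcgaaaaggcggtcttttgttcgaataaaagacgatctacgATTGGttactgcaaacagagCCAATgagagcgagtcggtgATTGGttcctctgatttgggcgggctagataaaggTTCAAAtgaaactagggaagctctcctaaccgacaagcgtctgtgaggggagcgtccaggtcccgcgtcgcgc
Mki67: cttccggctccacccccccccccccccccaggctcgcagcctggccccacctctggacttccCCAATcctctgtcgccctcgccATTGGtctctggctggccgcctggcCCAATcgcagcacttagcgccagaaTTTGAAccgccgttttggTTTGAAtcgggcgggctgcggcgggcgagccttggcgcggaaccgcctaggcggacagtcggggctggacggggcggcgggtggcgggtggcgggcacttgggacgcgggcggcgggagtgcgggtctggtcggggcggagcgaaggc
Cdk1: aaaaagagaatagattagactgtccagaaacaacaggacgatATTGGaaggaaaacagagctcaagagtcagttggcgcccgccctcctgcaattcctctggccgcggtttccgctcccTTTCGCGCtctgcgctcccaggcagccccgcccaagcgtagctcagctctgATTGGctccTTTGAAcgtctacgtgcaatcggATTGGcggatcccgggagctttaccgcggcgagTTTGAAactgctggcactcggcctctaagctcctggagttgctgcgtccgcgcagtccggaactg
Mcm6: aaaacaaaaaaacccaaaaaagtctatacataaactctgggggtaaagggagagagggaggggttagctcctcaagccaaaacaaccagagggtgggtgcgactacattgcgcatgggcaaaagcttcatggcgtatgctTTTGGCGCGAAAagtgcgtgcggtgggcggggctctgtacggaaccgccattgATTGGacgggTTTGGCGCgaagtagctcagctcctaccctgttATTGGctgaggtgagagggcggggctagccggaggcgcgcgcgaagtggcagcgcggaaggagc
Top2a carried 6 CCAAT and 2 CHR matches, Mki67 3 and 2, and Cdk1 3 and 2 with 1 E2F match. Mcm6 carried 2 CCAAT and no CHR match, with 3 E2F matches, of which 1 on each strand overlap in the 12-letter run of capitals.

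RefSeq promoters were found for 34 of the 40 members (36 promoters, since 2 genes have 2). CCAAT was present in 90.5% of the mitotic and 66.7% of the S-phase promoters, beside 37.4% of all 32851 promoters. The CHR element was present in 90.5% of the mitotic and 40% of the S-phase promoters, beside 27.6% of all. Both elements occurred together in 85.7% of the mitotic promoters, 26.7% of the S-phase promoters and 10.7% of all promoters. The E2F letters stood in 33.3% of the S-phase, 4.76% of the mitotic and 2.26% of all promoters. These are matches of letters in a 300-base window, and no test was run on them.

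Library totals lay between 28076947 and 33724562 counts, and levels are given in CPM, that is counts scaled to a common library size with TMM factors. The rd10 retinas of an age are called P15, P18 or P21 mutants. Many of the cell cycle genes, most of them mitotic, were weakly expressed, while Pcna and Rrm1 had means of 57.0 and 44.1 CPM in WT retinas. In WT retinas (all P15) the mean level per length was highest for Pcna, at 23.7 CPM per kb of exon, followed by Mcm4 (4.90), Ccna2 (4.53), Bub1b (4.14) and Rrm1 (4.0). The lowest were Kif23, a kinesin of the dividing cell's midzone (0.0187), Bub1, a kinase of the spindle checkpoint (0.0340), and Cdk1 (0.0403). Cdk1 thus rested on 9 and 2 reads in the WT libraries, Bub1 and Kif23 each on 8 and 0, and their folds have wide errors.

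**Figure D1:**
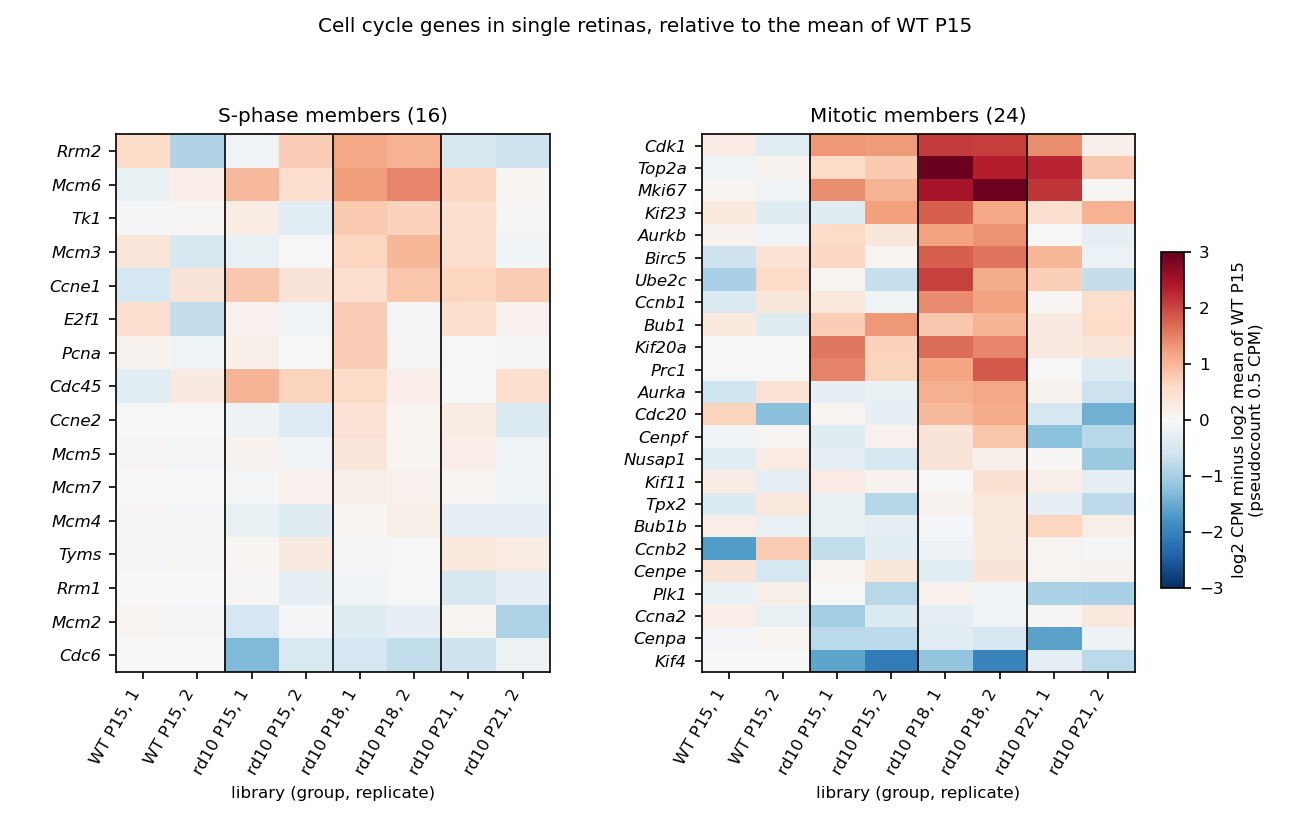
Heat map of the 16 S-phase and 24 mitotic genes (y axis, ordered by the fitted change at rd10 P18) in the 8 libraries (x axis). Colour is log2 CPM minus the log2 mean of WT P15, with a pseudocount of 0.5 CPM. The mitotic genes from Cdk1 to Prc1 are red in both P18 libraries, most S-phase genes stay near white, and Kif4 is blue in the rd10 P15 and P18 libraries.

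The comparison of rd10 P18 with WT P15 was the 1 of the 6 in which edgeR called a member. Top2a, the topoisomerase that untangles chromosomes before they part, rose, and it was the 1 member called (called by edgeR at an adjusted p below 0.05 and more than a 1-unit change on the log2 scale). Mki67, Cdk1, Kif20a and Prc1 were also several times higher in both P18 libraries than in both WT libraries, as was Mcm6 by a smaller factor, while Kif4 was lower, but none of these 6 passed the edgeR threshold. Of the 40 members, 23 were higher in both P18 libraries than in both WT libraries (57.5% beside 24.1% of all genes tested) and 4 were lower (10% beside 22.9%). The higher ones were 9 of 16 in S phase and 14 of 24 in mitosis (56.2% and 58.3%).

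Top2a was measured at 0.443 and 0.615 CPM in WT retinas, 1.02 and 1.27 in P15 mutants, 7.49 and 4.73 in P18 mutants, and 4.48 and 1.29 in P21 mutants. Both P18 libraries and 1 P21 library stood well above the rest, and the WT libraries were lowest. At P18 against WT P15 its log2 fold change was 3.51 (SE 0.66, n = 2 and 2, edgeR adjusted p = 0.0408), beside a share of 1.48% of all genes called. The call was lost, at adjusted p of 0.0512 to 0.272, when 1 of these was left out: a WT retina (0.272 without replicate 1, 0.165 without replicate 2), a P15 mutant (0.0732 without replicate 1, 0.0748 without replicate 2) or P18 mutant replicate 1 (0.0901), or when only the 4 libraries compared were fitted (0.0512). The log2 fold change stayed between 3.14 and 3.81 with any library left out.

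Mki67, whose protein coats mitotic chromosomes and is the usual label of cycling cells, was measured at 1.07 and 0.874 CPM in WT retinas, 3.37 and 2.5 in P15 mutants, 7.70 and 10.8 in P18 mutants, and 6.02 and 1.01 in P21 mutants. The groups WT P15, rd10 P15 and rd10 P18 did not overlap, and the P21 libraries spanned the range from WT to near P18. Its log2 fold change at P18 was 3.24 (SE 0.75, adjusted p = 0.0761), and it stayed between 2.98 and 3.47 with any library left out.
Cdk1 was measured at 0.333 and 0.0647 CPM in WT retinas, 1.21 and 1.20 in P15 mutants, 2.48 and 2.43 in P18 mutants, and 1.34 and 0.28 in P21 mutants. Its log2 fold change at P18 was 3.62 (SE 0.98, adjusted p = 0.114), the largest of the 40 members in size. Mcm6, a subunit of the replicative helicase, was measured at 4.58 and 6.28 CPM in WT retinas, 11.1 and 7.93 in P15 mutants, 13.7 and 16 in P18 mutants, and 8.65 and 5.63 in P21 mutants. Both P18 libraries were above the 6 others. Its log2 fold change at P18 was 1.45 (SE 0.32, adjusted p = 0.0650), the smallest p among the S-phase members.

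Kif20a, a kinesin needed to finish cell division, was at 0.776 and 0.745 CPM in WT retinas, 3.25 and 1.55 in P15 mutants, 3.52 and 2.96 in P18 mutants and 1.03 and 1.12 in P21 mutants. Its log2 fold change at P18 was 2.09 (SE 0.52, adjusted p = 0.0936). The P18 libraries of Kif20a overlapped those of rd10 P15, and both groups were above WT. Kif4, a kinesin that binds chromosome arms, went the other way, at 8.69 and 8.71 CPM in WT retinas, 2.55 and 1.66 in P15 mutants, 3.52 and 1.83 in P18 mutants, and 7.02 and 4.79 in P21 mutants. Its log2 fold change at P18 was -1.70 (SE 0.42, adjusted p = 0.0887). DESeq2, the study's tool, called 7 of the 40 at P18 (Top2a, Mki67, Cdk1, Kif20a, Prc1 and Mcm6 higher, Kif4 lower), beside 4.7% of all genes, and 9 of the 40 had an unadjusted edgeR p under 0.05, beside 17.4% of all.

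**Figure D2:**
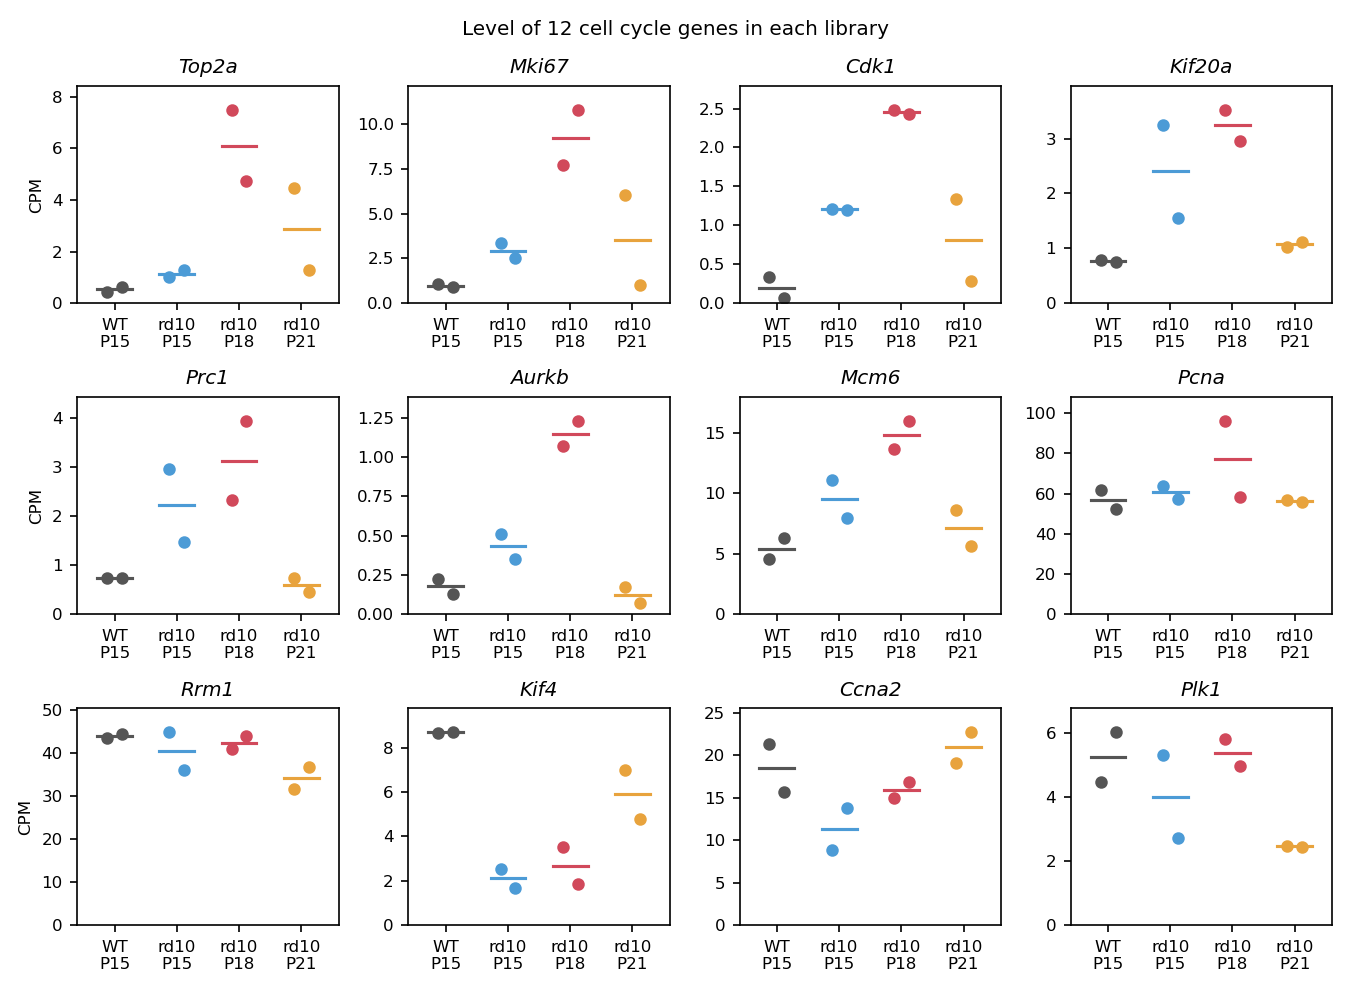
Level of 12 members in each library, in CPM on linear axes from 0, with 1 point per library and a line at the mean of the 2 libraries of a group. Top2a, Mki67, Cdk1, Aurkb and Mcm6 have both P18 libraries above all WT and P15 mutant libraries, Pcna has 1 P18 library at 96.1 and the other at 58.3, and Kif4 is highest in WT retinas.

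The mitotic members are given by role for P18 against WT P15, and within most roles some genes overlapped between the groups and others did not. Of the kinases and cyclins of mitotic entry, Cdk1, Ccnb1 and Aurka were higher without overlap, with group means of 0.199, 0.28 and 0.883 CPM in WT retinas and 2.45, 1.44 and 2.5 CPM in P18 mutants. Ccna2 (18.5 ± 3.97 and 15.9 ± 1.22 CPM, SD, n = 2 each), Plk1 (5.25 ± 1.10 and 5.37 ± 0.594) and Ccnb2 (1.35 ± 1.80 and 1.46 ± 0.425) overlapped. Aurkb and Birc5, partners in the complex that corrects chromosome attachment, were higher without overlap, at 0.222 and 0.129 CPM in WT retinas and 1.07 and 1.23 CPM in P18 mutants for Aurkb. Birc5 was at 0.0739 and 0.680 CPM in WT retinas and at 2.54 and 2.17 CPM in P18 mutants.
The spindle checkpoint genes split, with Bub1 at 0.296 and 0 CPM in WT retinas and 0.626 and 0.819 CPM in P18 mutants, while Bub1b was at 20.4 and 15 CPM in WT retinas and 17.1 and 22.0 CPM in P18 mutants. Of the kinetochore genes, Cenpf was higher without overlap (1.11 and 1.29 against 1.73 and 2.55 CPM), Cenpe overlapped, and Cenpa, the centromere histone, was lower (3.62 and 3.98 against 2.89 and 2.52 CPM).

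Among spindle and cytokinesis genes, Prc1, which bundles the midzone microtubules, was at 0.739 and 0.745 CPM in WT retinas and 2.33 and 3.94 CPM in P18 mutants, and Kif23 was at 0.296 and 0 CPM against 1.73 and 0.945 CPM. Kif11, Tpx2 and Nusap1, which build and hold the spindle, overlapped between the groups. The genes of mitotic exit, Cdc20 and Ube2c, both serving the ubiquitin ligase that ends mitosis, were higher without overlap. Ube2c was at 0 and 0.971 CPM in WT retinas and 3.61 and 1.64 CPM in P18 mutants, and Cdc20 was at 1.63 and 0.0647 against 2.15 and 2.43 CPM.

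The S-phase members had log2 fold changes of -1.23 (Cdc6) to 1.47 (Rrm2) at P18 against WT P15, and none was called. Within the helicase, Mcm3, Mcm4, Mcm5, Mcm6 and Mcm7 were higher in both P18 libraries than in both WT libraries and Mcm2 was lower, but of these only Mcm6 had an unadjusted p under 0.05. Mcm3 was at 3.70 and 1.85 CPM in WT retinas and at 4.62 and 6.08 CPM in P18 mutants (log2 fold change 0.95, SE 0.45). Mcm2 had a log2 fold change of -0.32 (SE 0.36), and those of Mcm4, Mcm5 and Mcm7 lay between 0.11 and 0.25. Cdc45 overlapped, and Cdc6 was at 0.739 and 0.777 CPM in WT retinas and 0.388 and 0.252 CPM in P18 mutants. Pcna was at 61.8 and 52.2 CPM in WT retinas and at 96.1 and 58.3 CPM in P18 mutants, so that 1 library set its group mean of 77.2 ± 26.8 CPM.

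In nucleotide supply, the members again differed. Rrm2, the regulated subunit of ribonucleotide reductase, was at 1.59 and 0.259 CPM in WT retinas and 2.68 and 2.43 CPM in P18 mutants, whereas Rrm1 was at 43.6 and 44.5 against 41.0 and 43.9 CPM. Tyms was at 3.88 and 4.05 against 3.88 and 3.94 CPM (log2 fold change -0.02, SE 0.30). Tk1 was at 0.370 and 0.421 against 1.04 and 0.945 CPM. Of the genes that open S phase, Ccne1 and Ccne2 were higher without overlap, with log2 fold changes of 0.76 (SE 0.39) and 0.28 (SE 0.32), and E2f1 overlapped.

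**Figure D3:**
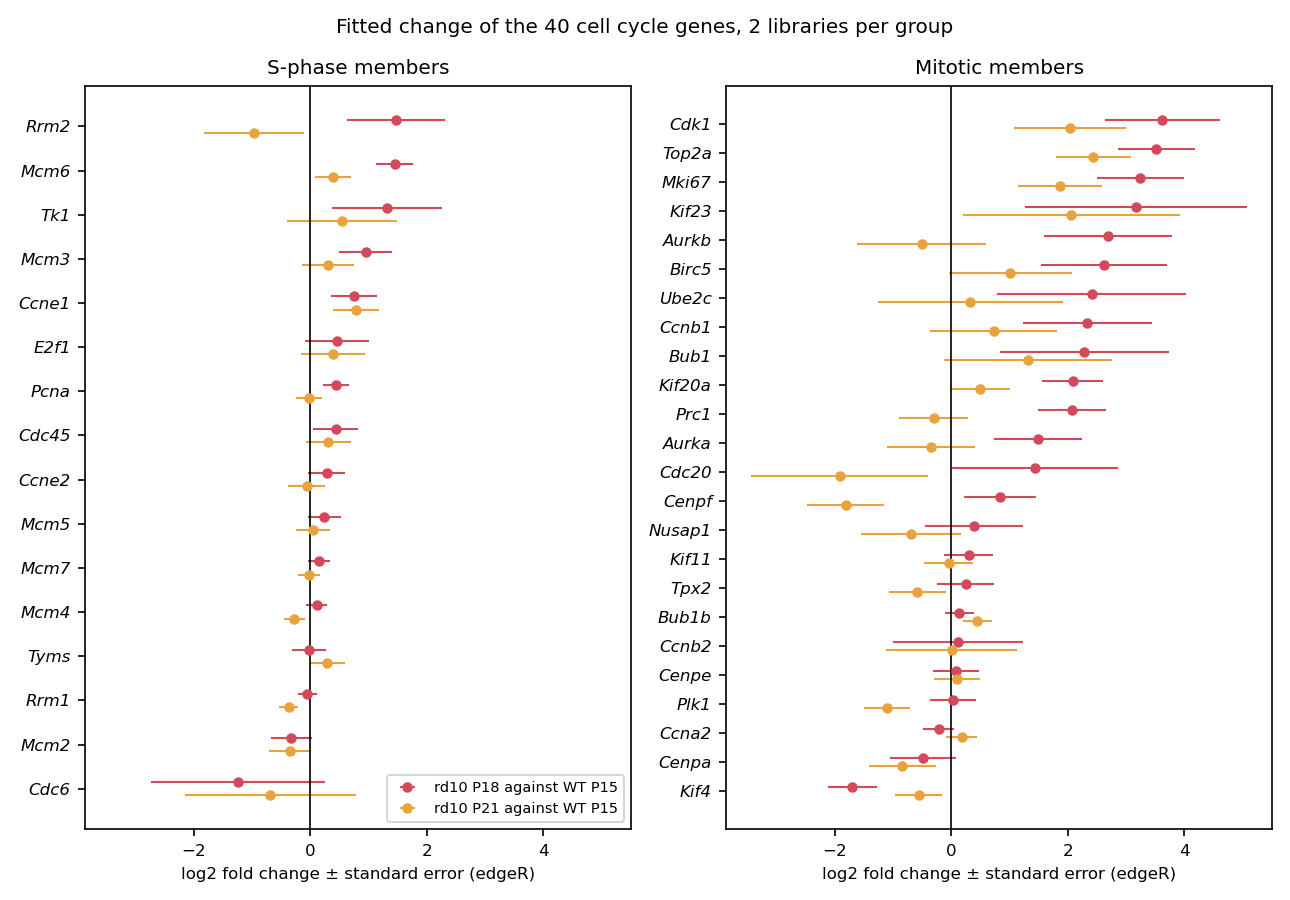
Fitted log2 fold changes (points, x axis) with standard errors (bars) of the 40 members at rd10 P18 (red) and rd10 P21 (orange) against WT P15. Mitotic genes from Cdk1 to Cdc20 have values above 1.4 at P18, most S-phase genes lie within 1 of 0, and the P21 values are mostly smaller than those at P18, from 2.44 for Top2a to -1.91 for Cdc20.

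At P15, before the P18 pattern, rd10 and WT retinas of the same age were compared. No member passed the edgeR threshold, beside 0.23% of all genes. Unadjusted p was under 0.05 for 7 of the 40, beside 12.3% of all, and DESeq2 called 1 (Kif4, lower), beside 2.11% of all. Both P15 mutant libraries were above both WT libraries for 11 members (27.5% beside 24.8% of all genes) and below them for 6 (15% beside 24.9%).
Kif4 had the smallest p, with a log2 fold change of -2.05 (SE 0.42, adjusted p = 0.0920). The adjusted p was 0.0338 when only the 4 libraries compared were fitted, but Kif4 was not called with the other scalings, without the filter or with a replicate block. Its log2 fold change stayed between -2.39 and -1.77 with any library left out. The next were Kif20a (1.65, SE 0.52, adjusted p = 0.244), Cdk1 (2.60, SE 0.96, adjusted p = 0.322), Prc1 (1.58, SE 0.59, adjusted p = 0.322), Ccna2 (-0.71, SE 0.26, adjusted p = 0.324) and Mcm6 (0.81, SE 0.31, adjusted p = 0.340). Ccna2 was at 21.3 and 15.7 CPM in WT retinas and at 8.88 and 13.8 CPM in P15 mutants. The retinas also differed in sex: 4 Y-linked genes summed to 4 and 12 counts in the WT P15 libraries and to 5530 and 6054 counts in the P15 mutant libraries, so that sex and the mutation cannot be told apart at P15.

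At P21 against WT P15 no member passed the edgeR threshold (0.386% of all genes did). Unadjusted p was under 0.05 for 4 members, beside 11.8% of all genes, and DESeq2 called 1 (Top2a, higher), beside 2.74% of all. Both P21 libraries were above both WT libraries for 5 members (12.5% beside 24.9%) and below them for 7 (17.5% beside 24.2%). Top2a had a log2 fold change of 2.44 (SE 0.64, adjusted p = 0.168), and Mki67 one of 1.86 (SE 0.72, adjusted p = 0.367) with libraries that overlapped WT.
The 2 retinas differed from each other. Without P21 replicate 1 the log2 fold change of Mki67 was 0.06 and without replicate 2 it was 2.63, and for Top2a the values were 1.28 and 3.08. Plk1, a kinase of mitotic entry, was at 4.47 and 6.02 CPM in WT retinas and at 2.46 and 2.45 CPM in P21 mutants (log2 fold change -1.10, SE 0.40, adjusted p = 0.326). Cenpf was at 0.228 and 0.454 CPM in P21 mutants (-1.81, SE 0.66, adjusted p = 0.328), Rrm1 had a value of -0.37 (SE 0.16, adjusted p = 0.436), and Cdk1 one of 2.04 (SE 0.96, adjusted p = 0.460) with overlap.

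Among the rd10 groups, the P18 retinas were compared with those before and after. Between P18 and P15, 23 members were higher in both P18 libraries (57.5% beside 21.9% of all genes), 7 of 16 in S phase and 16 of 24 in mitosis, and 2 were lower (5.0% beside 20.4%), Tyms and Cdc45. No member passed the edgeR threshold, beside 0.591% of all genes. Unadjusted p was under 0.05 for 5, beside 12.9% of all, and DESeq2 called 1 (Top2a), beside 2.98% of all. Top2a had a log2 fold change of 2.41 (SE 0.62, adjusted p = 0.168), which stayed between 2.04 and 2.71 with any library left out. It was followed by Aurka (1.86, SE 0.76, adjusted p = 0.360), Mki67 (1.65, SE 0.69, adjusted p = 0.365), Mcm3 (1.06, SE 0.45, adjusted p = 0.379), Mcm4 (0.41, SE 0.18, adjusted p = 0.383) and Mcm6 (0.64, SE 0.31, adjusted p = 0.433).

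Between P21 and P18, 25 members were lower in both P21 libraries (62.5% beside 22.0% of all genes), 8 of 16 in S phase and 17 of 24 in mitosis, and Kif4, Tyms and Ccna2 were higher (7.5% beside 21%). No member passed the edgeR threshold, beside 0.0196% of all genes. Unadjusted p was under 0.05 for 9, beside 10.8% of all, and DESeq2 called 0, beside 0.582% of all. Prc1 had a log2 fold change of -2.37 (SE 0.60, adjusted p = 0.410) and Cenpf one of -2.64 (SE 0.67, adjusted p = 0.410). Those of Mcm6 (-1.06, SE 0.31), Kif20a (-1.59, SE 0.51), Aurkb (-3.20, SE 1.12) and Plk1 (-1.13, SE 0.40) had adjusted p of 0.429 to 0.440. This comparison and the one between P18 and P15 share the P18 libraries.

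Between P21 and P15 no member passed the edgeR threshold, beside 0.401% of all genes, and DESeq2 called 0, beside 2.68% of all. Unadjusted p was under 0.05 for 5, beside 12.8% of all. Both P21 libraries were above both P15 libraries for 6 members (15% beside 26.0%) and below them for 10 (25% beside 25.5%). The smallest p belonged to Kif4 (log2 fold change 1.49, SE 0.42, adjusted p = 0.195), Ccna2 (0.88, SE 0.26, adjusted p = 0.219), Prc1 (-1.88, SE 0.59, adjusted p = 0.240), Bub1b (0.72, SE 0.25, adjusted p = 0.278), Cenpf (-1.69, SE 0.66, adjusted p = 0.335) and Kif20a (-1.16, SE 0.51, adjusted p = 0.391).

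S-phase and mitotic genes were then compared as sets, with no test since the members were chosen as a list. At P18 against WT P15 the median log2 fold change was 0.36 over the 16 S-phase members, 1.47 over the 24 mitotic members and 0.01 over all genes tested, and 12 of 16 and 21 of 24 had a positive value. When libraries were scaled by their size only, the median of all genes became 0.13 and those of the sets 0.48 and 1.59. At P15 the medians were 0.01 and 0.05, and at P21 against WT P15 they were 0.02 and 0.05. From P18 to P21 they were -0.25 for S phase and -1.12 for mitosis, beside 0.00 for all genes.
The 9 members of the Mcm, Rrm and Tyms families summed to 106.3 and 104.0 CPM in WT retinas, 105.1 and 97.96 in P15 mutants, 115.4 and 122.2 in P18 mutants and 97.38 and 88.13 in P21 mutants. Both P18 libraries were above the 6 others, by a margin that was small beside the total.

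When the 24 mitotic members were split by their mean level per length over all 8 libraries, the 12 lower ones had a median change of 2.37 (log2) at P18 against WT P15, with 12 of 12 positive, and the 12 upper ones 0.13, with 9 of 12 positive. The level that made the split includes the P18 libraries themselves, and the upper 12 also hold Mki67 (3.24), Kif20a (2.09), Aurka (1.49) and Cdc20 (1.44). The lower 12 summed to 7.428 and 8.353 CPM in WT retinas, 12.86 and 11.92 in P15 mutants, 29.29 and 26.65 in P18 mutants, and 14.33 and 7.097 in P21 mutants. The upper 12, of which Ccna2 and Bub1b made up the most, summed to 72.44 and 62.87 CPM in WT retinas, 51.36 and 49.85 in P15 mutants, 69.11 and 80.21 in P18 mutants, and 76.25 and 65.17 in P21 mutants. Of these sums, that of the lower 12 had both P18 libraries apart from all others, and that of the upper 12 did not.

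The ratio of summed S-phase to summed mitotic CPM was 2.38 ± 0.099 in WT retinas, 2.90 ± 0.127 in P15 mutants, 2.15 ± 0.368 in P18 mutants and 2.11 ± 0.226 in P21 mutants (SD, n = 2 each). The P15 mutant libraries (2.99 and 2.81) were above the other 6, and the P18 (2.41 and 1.89) and P21 (1.95 and 2.27) libraries overlapped each other. A ratio of sums follows the abundant genes. At P15 the log2 ratio of sums differed from WT by 0.29, but as a mean of log2 CPM, in which each gene counts alike, S phase minus mitosis differed by -0.40, so that the direction turned. At P18 against WT P15 the difference was -0.16 by sums, running from -0.33 to 0.02 as single libraries were left out with the sign resting on rd10 P18 replicate 2, and -1.03 by the mean of log2 CPM.

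**Figure D4:**
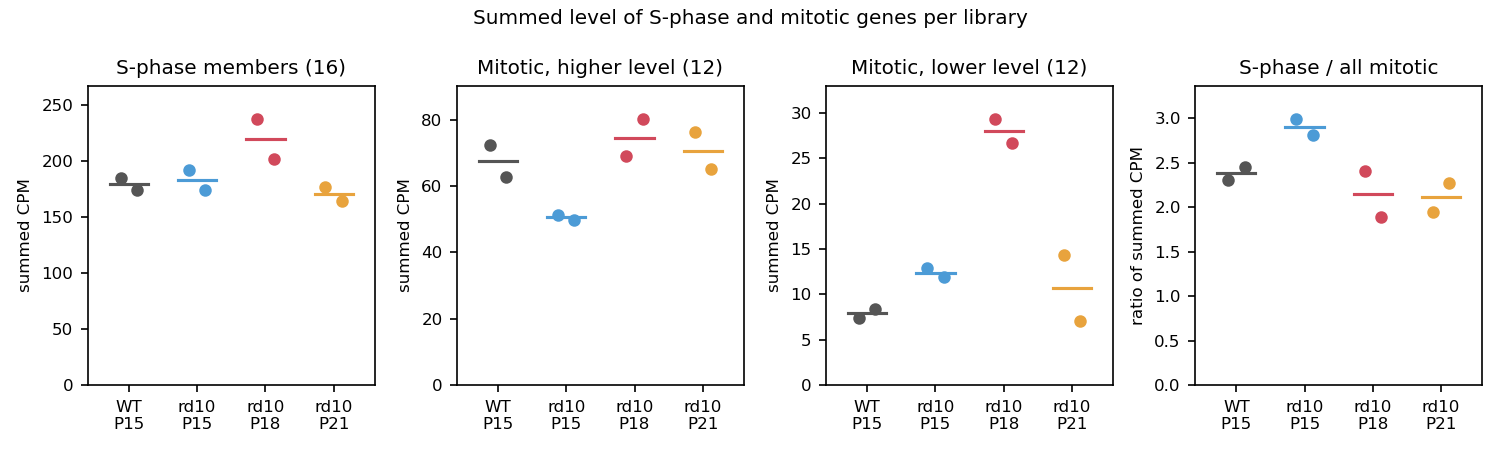
Summed CPM per library (points, linear axes from 0) with the group mean (line) of the 16 S-phase members, of the 12 mitotic members with the higher and the 12 with the lower level per length, and the ratio of S-phase to all mitotic CPM. The lower 12 mitotic genes reach 29.29 and 26.65 CPM at P18, and the ratio is highest in P15 mutants (2.99 and 2.81).

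Other genes of the cycle were read from lists of 36 further S-phase genes, 45 further mitotic genes, 12 genes of G1 control and 11 inhibitors, of which 35, 44, 11 and 11 were tested. No further S-phase, mitotic or G1 gene passed the edgeR threshold in any of the 6 comparisons. At P18 against WT P15, 1 of 36, 12 of 45 and 4 of 12 of these had an unadjusted p under 0.05, beside 17.4% of all genes (2.78% and 26.7% for the first 2 lists), and DESeq2 called 1, 0 and 1, beside 4.7% of all. The further mitotic genes had a median of 0.66 on the log2 scale at P18, 37 of 44 positive, and the further S-phase genes one of 0.15, 22 of 35 positive. For the G1 genes it was 0.41 at P18, 9 of 11 positive, and 0.44 at P21 against WT P15, 11 of 11 positive. The smallest p in each list belonged to Uhrf1, which keeps DNA methylation in place after replication (4.17, SE 0.87, adjusted p = 0.0557), Spc25, a kinetochore gene (-0.75, SE 0.15, adjusted p = 0.0509), and Ccnd3, a G1 cyclin (0.72, SE 0.15, adjusted p = 0.0610). Uhrf1 was at 0.222 and 0.129 CPM in WT retinas and at 2.68 and 3.75 CPM in P18 mutants.

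In the other comparisons the smallest p of these lists belonged to the following genes. At P15 against WT P15 they were Pold1, a DNA polymerase subunit (-0.79, SE 0.19, adjusted p = 0.143), Spc25 (-0.43, SE 0.15, adjusted p = 0.294) and E2f3, a G1 transcription factor (0.84, SE 0.16, adjusted p = 0.0697). At P21 against WT P15 they were Rpa2, which coats single-stranded DNA (-0.66, SE 0.20, adjusted p = 0.233), Spc25 (-0.69, SE 0.15, adjusted p = 0.117) and Ccnd2, a G1 cyclin (1.19, SE 0.39, adjusted p = 0.273). Between P18 and P15 they were Cdc7, a kinase that fires replication origins (0.62, SE 0.17, adjusted p = 0.186), Dlgap5, a spindle protein (3.74, SE 1.26, adjusted p = 0.290), and Ccnd3 (0.72, SE 0.15, adjusted p = 0.100). Between P21 and P15 they were Pold1 (0.61, SE 0.19, adjusted p = 0.243), Nek2, a kinase of the centrosome (-2.79, SE 0.75, adjusted p = 0.182), and E2f3 (-0.58, SE 0.16, adjusted p = 0.182). Between P21 and P18 they were Rpa2 (-0.80, SE 0.20, adjusted p = 0.410), Dlgap5 and Ccnd1, a G1 cyclin (-0.65, SE 0.21, adjusted p = 0.436). Dlgap5 had 92 counts over the P18 libraries and 0 over the P21 libraries, at least 29.9-fold lower if 3 counts are set for the empty group. DESeq2 called it there, as it did Nek2 between P21 and P15.

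Among the inhibitors, Cdkn1a, which encodes the kinase inhibitor p21, and the growth arrest gene Gadd45b passed the threshold. Cdkn1a was at 5.88 and 4.95 CPM in WT retinas, 8.66 and 6.03 in P15 mutants, 17.2 and 16.4 in P18 mutants, and 13.8 and 12.4 in P21 mutants. It rose at P18 against WT P15 by a log2 fold change of 1.63 (SE 0.25, adjusted p = 0.0277), and its value at P21 was 1.28 (SE 0.25, adjusted p = 0.0855). The P18 call was lost without WT P15 replicate 1 (adjusted p = 0.154), without WT P15 replicate 2 (0.134) or with only the 4 libraries compared (0.0606).
Gadd45b was at 5.95 and 12.3 CPM in WT retinas, 2.45 and 2.33 in P15 mutants, 29.9 and 19.7 in P18 mutants, and 13.3 and 13.5 in P21 mutants. It rose from P15 to P18 by 3.37 (SE 0.38, adjusted p = 0.0134) and was higher at P21 than at P15 by 2.48 (SE 0.37, adjusted p = 0.0406), and against WT P15 its value at P15 was -1.93 (SE 0.37, adjusted p = 0.0720). The first call was lost without rd10 P15 replicate 1 (0.112) or replicate 2 (0.121). The second was lost without rd10 P15 replicate 1 (0.222) or replicate 2 (0.267) and without rd10 P21 replicate 1 (0.128) or replicate 2 (0.0725). From P18 to P21 the smallest p among the inhibitors was that of Gadd45a (-0.65, SE 0.19, adjusted p = 0.429), and 11 of 11 inhibitors had a negative value.

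Markers of microglia, monocytes and reactive Müller glia were higher at P18, as was the median of the mitotic members, but they did not move together throughout. At P21 against WT P15 the median log2 fold change was 2.37 for the 16 microglia markers and 0.05 for the 24 mitotic members. At P18 against WT P15 the medians were negative for the 10 rod markers (-0.78) and the 8 pigment epithelium markers (-1.27). The 16 microglia markers summed to 92.25 and 109.3 CPM in WT retinas, 142.1 and 134.7 in P15 mutants, 374.7 and 373.1 in P18 mutants, and 552.2 and 273.7 in P21 mutants. Against WT P15, edgeR called 6 of 16 higher at P18 (beside 1.48% of all genes called) and 4 of 16 at P21 (beside 0.386%). At both ages 16 of 16 had a positive value. In the P21 pair, the retina with more microglia marker RNA (replicate 1) was also the one with more Mki67 (6.02 against 1.01 CPM), Top2a (4.48 against 1.29) and Cdk1 (1.34 against 0.28). Cenpa (0.914 against 3.36), Kif23 (0.4 against 0.839), Ccnb1, Ccna2, Bub1, Kif20a, Cenpe and Cenpf went the other way. Of the S-phase members, Rrm1 (31.6 against 36.8), Cdc45 (3.14 against 4.68), Cdc6, Ccne1 and Mcm4 did too. So did the microglia marker Cx3cr1 (7.54 against 17.8 CPM). The 2 retinas also differed in Y-linked counts (7193 and 3). The 8 monocyte markers, led by Lyz2, summed to 4.065 to 8.624 CPM at P15 in both genotypes, to 52.08 and 47.04 at P18 and to 42.05 and 16.57 at P21. Their defining gene Ccr2 was at 2.51 and 2.68 CPM at P18, at 2.31 and 0.105 CPM at P21 and at or under 0.127 CPM in the 4 P15 libraries.

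The 10 markers of reactive Müller glia, the support cells of the retina, summed to 161.5 and 191.0 CPM in WT retinas, 122.4 and 127.6 in P15 mutants, 1570 and 1355 in P18 mutants, and 1000 and 704.2 in P21 mutants. At P18 against WT P15, edgeR called 9 of 10 higher (beside 1.48% of all genes called), and 10 of 10 had a positive value. The 12 markers of retinal progenitors summed to 418.2 and 447.3 CPM in WT retinas, 670.2 and 517.0 in P15 mutants, 586.9 and 615.7 in P18 mutants, and 691.9 and 605.8 in P21 mutants. Against WT P15, 11 of 12 had a positive value at P18 (median log2 fold change 0.61) and 1 was called higher, and several of them are also expressed by mature retinal cells. Their defining genes Fgf15 and Atoh7 were at or under 1.20 and 0.564 CPM in all 8 libraries. The 8 lymphocyte markers summed to 0.4065 and 0.777 CPM in WT retinas, 3.246 and 3.948 in P15 mutants, 4.206 and 2.836 in P18 mutants, and 2.712 and 1.678 in P21 mutants. Cd8a was the most abundant of them in every rd10 library (2.83 and 3.31 CPM in P15 mutants), and Cd3e was at 0 in all 8. Only 3 of the 8 were tested, and at P18 against WT P15 all 3 had a positive value and 0 were called. The 8 endothelial markers, led by Kdr, summed to 332.6 to 601.2 CPM, with P18 at 332.6 and 418.9. The part of these cells in the cell cycle values was not tested.

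**Figure D5:**
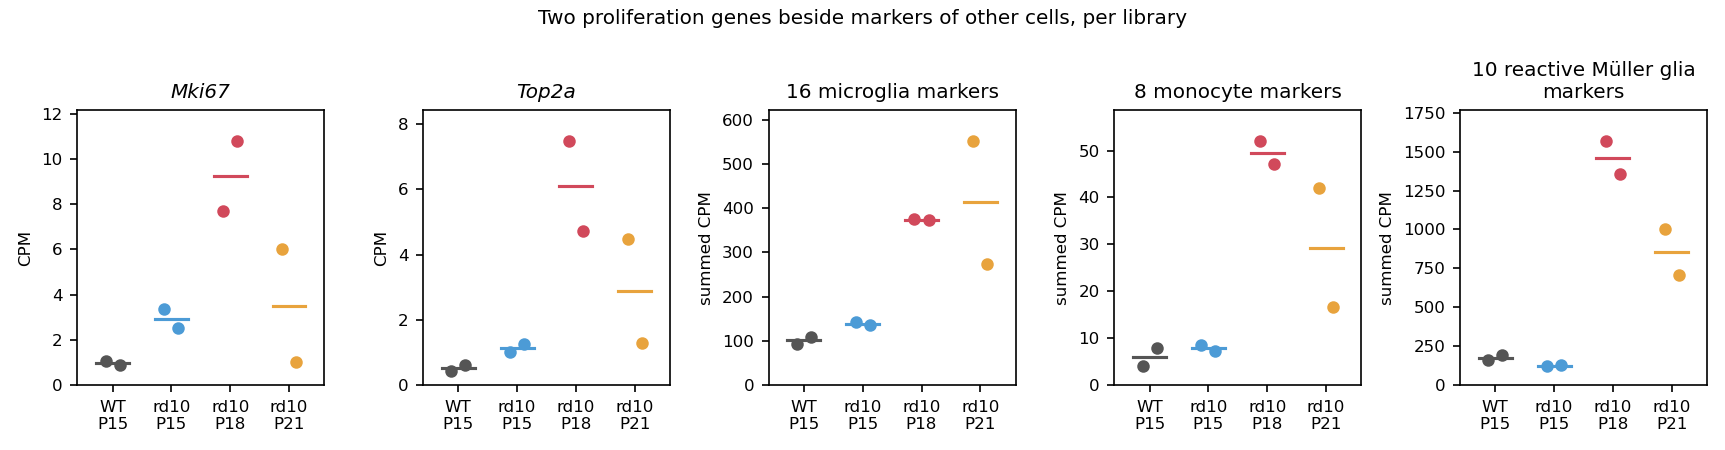
CPM of Mki67 and Top2a beside the summed CPM of markers of microglia, monocytes and reactive Müller glia in each library (points, linear axes from 0, lines at group means). All 5 are high in both P18 libraries, and in the P21 pair replicate 1 is above replicate 2 in each panel.

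The values at P18 and P21 were also read by sex, since each of these groups held 1 retina with Y-linked counts and 1 without. In the 4 libraries without them, Mki67 was at 1.07 and 0.874 CPM in WT retinas, 10.8 at P18 and 1.01 at P21, and Top2a at 0.443 and 0.615, 4.73 and 1.29 CPM. Kif4, which lies on the X chromosome, was at 8.69 and 8.71 CPM in WT retinas, 1.83 at P18 and 4.79 at P21 in these. The part of sex in these values was not tested.

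Of the 40 members, 13 share exon bases with another gene in GENCODE M21 and 6 share over 10%, each with a gene on the opposite strand. Since the counting is not stated to use strand, reads from such pairs cannot be told apart. The pairs were Kif20a with Cdc23 (29.3% of its exon bases), Ube2c with Tnnc2 (22.8%), Ccne2 with Ints8 (17.4%), Kif4 with Pdzd11 (15.1%), Ccna2 with Exosc9 (12.5%) and Prc1 with Rccd1 (11.1%). At P18 against WT P15 the log2 fold change was -0.20 for Cdc23, 0.53 for Pdzd11, -0.57 for Rccd1 and 0.10 for Exosc9, each opposite in sign to that of its partner. That of Ints8 was 0.06, of the same sign as Ccne2, and Tnnc2 did not pass the filter on low counts. The neighbours other than Tnnc2 were more abundant in every library than the member they overlap. Cdc23, for one, was at 66.8 to 83.7 CPM and Kif20a at 0.745 to 3.52 CPM. The part of such reads in the members' values was not tested.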

How the data were processed

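Poly(A) RNA of single whole retinas was sequenced on the Illumina NovaSeq platform, with 2 samples in each of the 4 groups. The deposited values were raw read counts per Ensembl gene identifier, made by the authors without normalization. HISAT2 is named in the submitters' processing notes. Its version, and how reads were assigned to genes on which build and annotation, were not given in the sources used here. GENCODE M21 (GRCm38) gave the symbols, exon lengths and overlaps, and promoters came from RefSeq (GRCm38.p6).

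Counts were tested with edgeR 4.0.16 in R 4.3.3, with limma 3.58.1. The function filterByExpr chose the genes (minimum count 10, minimum total 15). Libraries were scaled by TMM and fitted by a quasi-likelihood model over all 8 samples with 4 residual degrees of freedom, with Benjamini-Hochberg adjustment over the 20457 genes tested. Genes were called with the study's limits, an adjusted p below 0.05 and a log2 change beyond 1 in either direction. DESeq2 1.42.0, a later version of the study's tool, was an alternative, beside other scalings, no filter, only the 4 libraries compared, a replicate block and each library left out in turn. In each comparison, statistics are given for the called members or those with the smallest p, 6 in all, and for each other list for up to 3 called genes or the one with the smallest p. The members and all lists were chosen with earlier results of these data known. Figures were drawn with matplotlib 3.10.9.

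The labels do not say whether the 2 retinas of a group came from separate animals. The Y-linked counts differed within P18 (6011 and 19) and within P21 (7193 and 3), so that these pairs came from different animals. For the WT P15 and rd10 P15 pairs this is not known, and p-values measure the spread between these samples only. The MNU and purified microglia data of the study were not analysed here.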

Additional observations from a re-analysis of the deposited data

How the results depend on the processing

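With 2 retinas per group and WT at P15 only, the calls were few and depended on the settings. DESeq2 called 1 member at P15 against WT P15 (Kif4), 7 at P18 against WT P15, 1 at P21 against WT P15 (Top2a) and 1 between P18 and P15 (Top2a), where edgeR called 0, 1, 0 and 0. With only the 4 libraries compared, 1 member (Kif4) was called at P15 and Top2a was lost at P18, where Mki67 was called. Scaling by library size only, or no filter on low counts, gave 2 members at P18 (Top2a and Mcm6). With single libraries left out, the count ran from 0 to 1 at P15, 0 to 2 at P18 and 0 to 1 between P18 and P15. It was 0 throughout in the other 3 comparisons. With the replicate number as a block, 0 members were called at P18 (Top2a, adjusted p = 0.0608) and the call of Gadd45b between P21 and P15 was lost (adjusted p = 0.0635). Libraries of the same number did not deviate together over all genes tested (correlations of -0.0245 to 0.0594). This gave no sign of a pairing by number, but it cannot exclude one that acts on few genes. The cause of these differences was not tested.

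The difference in the log2 ratio of S-phase to mitotic sums moved when a mean of log2 CPM was used, and turned in direction at P15 against WT P15 (from 0.29 to -0.40), between P21 and P15 (from -0.46 to 0.22) and between P21 and P18 (from -0.02 to 0.86). It went from -0.16 to -1.03 at P18 against WT P15 and from -0.44 to -0.64 between P18 and P15. With single libraries left out it ran from -0.33 to 0.020 at P18 against WT P15, from -0.62 to -0.27 between P18 and P15 and from -0.20 to 0.15 between P21 and P18. The depth limits the mitotic genes most, since several had fewer than 10 reads in a WT library.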
